A study of Mus musculus with 13 samples.

Results

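The promyelinating transcription factor genes are 9 genes that were taken by name from the 40787 genes of the count table: Egr2, Sox10, Pou3f1, Pou3f2, Nab1, Nab2, Tead1, Yy1, and Zeb2. Each was matched to 1 Ensembl gene, and all 9 passed the count filter in every comparison. RNA sequencing gave their transcript counts in sciatic nerves of mice backcrossed to C57BL/6, at 5 days post crush (dpc). Controls carried homozygous floxed Rptor alleles without Cre, and RaptorKO mice carried the same alleles with a tamoxifen-inducible Cre that is active in Schwann cells (SCs). Both genotypes received tamoxifen when they were 2 months old, and surgery followed 2 months later. Injured nerves (3 control, 3 RaptorKO) were taken distal to the crush and were compared with the uninjured contralateral nerves (3 control, 4 RaptorKO). RNA came from whole nerves without the epineurium. Fewer SCs in a nerve and less RNA of a gene per SC therefore cannot be told apart in these libraries.

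SCs start to myelinate when a small set of transcription factors acts in sequence. Sox10, an SRY-box factor, keeps the SC lineage and works at every stage. Pou3f1 (Oct6) and its relative Pou3f2 (Brn2) are POU factors of the promyelinating stage, and together with Sox10 they switch on Egr2 (Krox20), the zinc finger factor that drives myelin gene expression. Nab1 and Nab2 are cofactors that bind EGR proteins, Tead1 is the DNA-binding partner of the Hippo pathway coactivators Yap1 and Wwtr1 (Taz), Yy1 is a zinc finger factor needed for Egr2 expression, and Zeb2 is a repressor of genes that hold SCs back from myelination. After injury SCs lose their myelin program and take on an immature, repair-type state.

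Library totals ranged from 8200458 to 13581775 counts, and values are given as counts per 1000000 (CPM) after TMM scaling. Rptor, the targeted gene, encodes the mTORC1 subunit Raptor. It read at 43.9 to 52.7 CPM in control and 22.2 to 28.2 CPM in RaptorKO contralateral nerves, and at 35.2 to 48.8 against 23.3 to 28.8 CPM in injured nerves. The 6 SC markers used here were detected in all 4 groups. Both libraries of control replicate 3 held 14462 and 15017 Xist counts, whereas the other libraries held 4 to 17. Without both, 5 members were still called after crush in control nerves and 0 in the interaction. All RaptorKO libraries were among those with few Xist counts, so sex was not balanced between the genotypes. Without the contralateral library of control replicate 3, Pou3f2 lost its call between genotypes, as it also did without any other control. Calls are those of edgeR's quasi-likelihood test, with a Benjamini-Hochberg adjusted p under 0.05 and more than a 1.2-fold difference.

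Stretches of upstream sequence were compared with the motifs that these factors bind. Egr2 lies on chromosome 10 of GRCm38 from 67535475 to 67542188, on the plus strand. The 250 bases before 1 of its RefSeq starts (chr10:67537619-67537868, GRCm38.p6, plus strand) lie inside the gene but overlap no annotated exon. They are shown because Egr2 had the largest difference between contralateral and injured nerves among the members. The capitals mark the POU octamer ATGCAAAT, which begins 127 bases before the start. The windows of Egr2 that begin at 67537620 and 67537680 overlap this one and hold the same octamer. Those that begin at 67535249 and 67537316 hold none. The share given below counts windows, not genes.
Egr2: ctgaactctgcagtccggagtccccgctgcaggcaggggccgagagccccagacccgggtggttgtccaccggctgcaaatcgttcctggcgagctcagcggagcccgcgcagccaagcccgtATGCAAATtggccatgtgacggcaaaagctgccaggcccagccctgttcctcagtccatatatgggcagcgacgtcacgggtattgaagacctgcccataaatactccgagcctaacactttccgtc
Nab1 lies on chromosome 1 from 52457294 to 52500679, on the minus strand. The 250 bases before its RefSeq start overlap the first exon of a longer annotated transcript and hold the EGR motif GCGTGGGCG on both strands, 141 and 109 bases before the start. The stretches are given on the strand of the gene with the motif in capitals (chr1:52500570-52500599 and chr1:52500538-52500567) and are shown because NAB1 is a cofactor of EGR2 and Nab1 fell after crush in both genotypes, as Egr2 did.
Nab1, 141: gccccgcggcCGCCCACGCcgggatctgcg
Nab1, 109: actcggccgcGCGTGGGCGggagccggagc
Both strands were searched. Of 32851 RefSeq windows of this length, 1.60% held the octamer and 0.536% held the EGR motif. Windows were used for 6 of the 9 members. The remaining motifs that were searched were ACAAAG for SOX (16.5% of windows), GGAATG for TEAD (12.6%), AAGATGGC for YY1 (1.57%), and CACCTG for ZEB factors (17.2%). SOX and TEAD matches were found in windows of Zeb2, TEAD matches also in windows of Egr2 and Nab1, and YY1 and ZEB matches in none. A match is a description of the letters only.

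In the same build, Sox10 (ENSMUSG00000033006, chromosome 15, 79154908 to 79165240, minus strand) and Yy1 (ENSMUSG00000021264, chromosome 12, 108792973 to 108820148, plus strand) are multi-exon genes. Both POU genes consist of a single exon, Pou3f1 (ENSMUSG00000090125, chromosome 4, 124656807 to 124660655, plus strand) and Pou3f2 (ENSMUSG00000095139, chromosome 4, 22482780 to 22488366, minus strand). Nab2 (ENSMUSG00000025402, chromosome 10, 127660918 to 127668568, minus strand) lies on the chromosome of Egr2. Tead1 (ENSMUSG00000055320, chromosome 7, 112679318 to 112906807, plus strand) and Zeb2 (ENSMUSG00000026872, chromosome 2, 44983632 to 45117395, minus strand) span the longest regions of the 9 genes. The identifiers of Egr2 and Nab1 are ENSMUSG00000037868 and ENSMUSG00000002881.

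The question asked of the injury was how crush injury changed the factors in control nerves. Egr2 and Nab1 fell, Sox10 fell by less, and Pou3f1 and Zeb2 rose, whereas Pou3f2, Nab2, Tead1, and Yy1 were not called. Of the 9 members, 2 were called higher and 3 lower in injured control nerves, where 32.4% of 12430 tested genes were called higher and 32.9% lower. In RaptorKO nerves 2 members were called higher and 5 lower, where 30.5% of 12515 genes were called higher and 28.5% lower. The median log2 fold change of the members was -0.20 in control and -0.47 in RaptorKO nerves, against 0.00 and 0.03 over all tested genes.

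**Figure D1:**
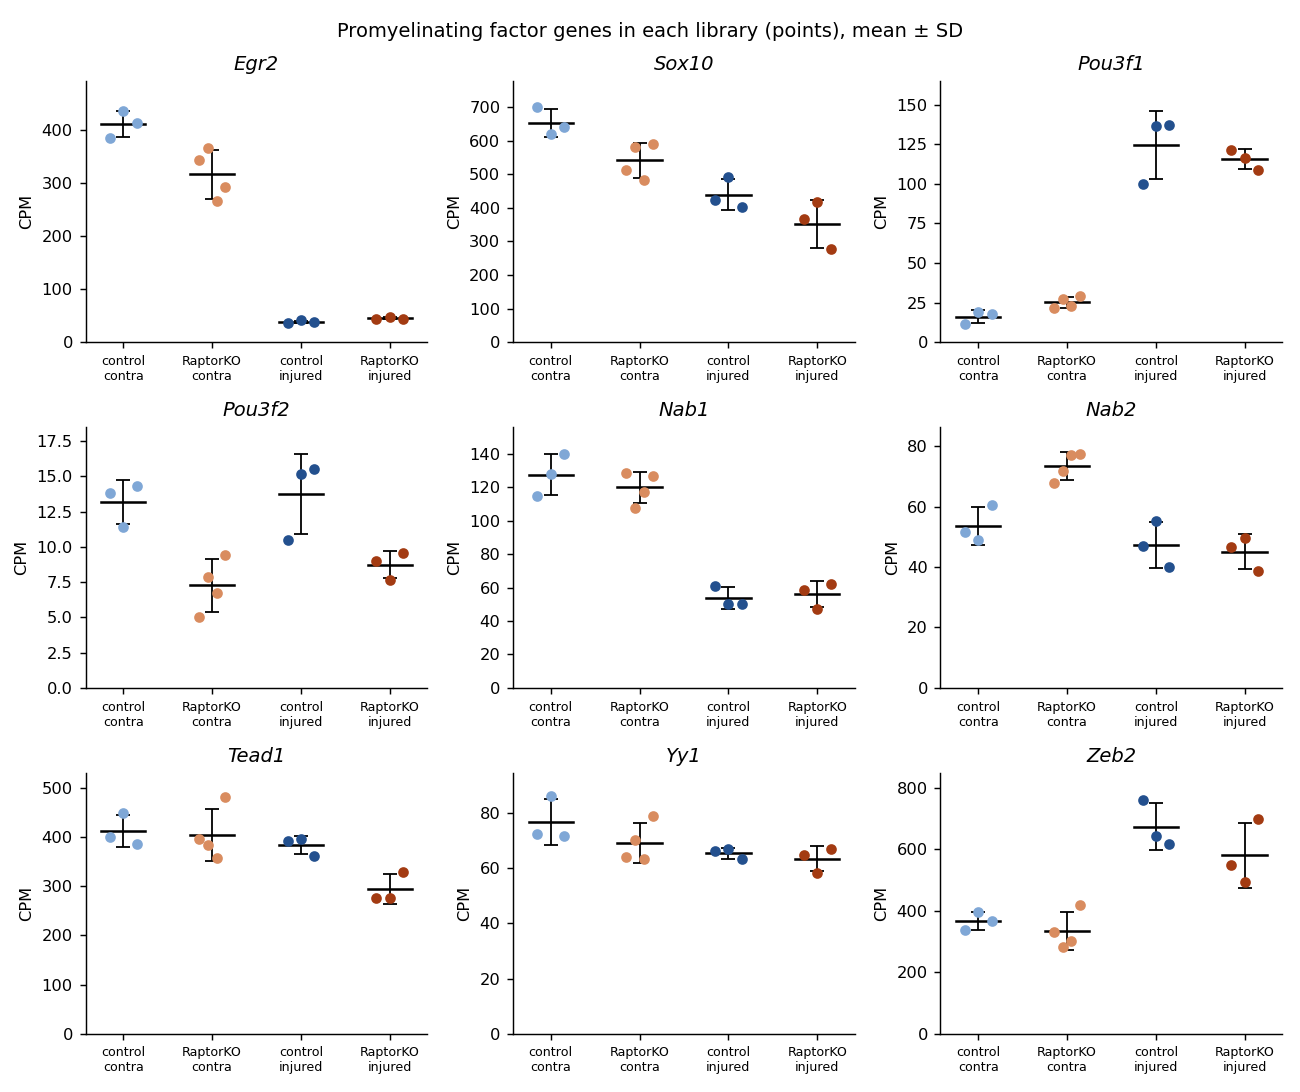
Level of each of the 9 genes (CPM, linear axis from 0) in the 4 groups, with 1 point per library and bars for the mean and SD. Egr2 dropped from 265 to 435 CPM in contralateral nerves to 36.9 to 46.7 CPM in injured nerves, and Pou3f1 stood higher in all 6 injured nerves than in all 7 contralateral nerves.

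Egr2, the driver of myelin gene expression, read at 385, 435, and 412 CPM in the contralateral and at 36.9, 40.8, and 37.3 CPM in the injured control nerves. In RaptorKO nerves it read at 343, 365, 265, and 291 CPM contralaterally and at 43.5, 46.7, and 44.4 CPM after crush. The injured and contralateral nerves did not overlap in either genotype. Egr2 fell 10.9-fold in control nerves (log2 fold change -3.45, SE 0.11, adjusted p = 1.48e-10, edgeR's quasi-likelihood test) and 7.07-fold in RaptorKO nerves (-2.82, SE 0.13, adjusted p = 4.44e-08).

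Sox10, the lineage factor, read at 700, 620, and 642 CPM in contralateral and 424, 491, and 402 CPM in injured control nerves. The RaptorKO values were 514, 581, 482, and 590 CPM contralaterally and 366, 418, and 276 CPM after crush. Every injured nerve was below every contralateral nerve of its genotype. The fall was 1.52-fold in control (log2 fold change -0.60, SE 0.11, adjusted p = 0.000443, quasi-likelihood test) and 1.54-fold in RaptorKO nerves (-0.62, SE 0.14, adjusted p = 0.00333). The SC markers did not all go the same way: the summed level of the 6 markers, of which Sox10 is 1, was 2378 to 2411 CPM in contralateral and 3364 to 3678 CPM in injured control nerves, and 2 of the 6 were called lower and 2 higher. In RaptorKO nerves the sum was 1306 to 1636 CPM contralaterally and 2339 to 3088 CPM after crush, with 2 called lower and 3 higher. The higher sums came from Ngfr, a receptor gene of immature and repair SCs, which was at 36.0 to 43.8 CPM in contralateral and 1453 to 1788 CPM in injured control nerves. Without Ngfr the sum of the other 5 was lower after crush, at 2342 to 2370 against 1797 to 1910 CPM in control nerves, whereas it overlapped in RaptorKO nerves (1238 to 1565 against 1088 to 1457 CPM). Their part in these results was not tested.

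Pou3f1, the promyelinating POU factor, went the other way. It read at 11.4, 18.99, and 17.6 CPM in contralateral and at 100, 137, and 137 CPM in injured control nerves. In RaptorKO nerves the values were 21.4, 27.5, 22.9, and 28.9 CPM contralaterally and 121, 116, and 109 CPM after crush. All injured nerves lay above all contralateral nerves. Pou3f1 rose 7.63-fold in control (log2 fold change 2.93, SE 0.18, adjusted p = 4.76e-08, quasi-likelihood test) and 4.57-fold in RaptorKO nerves (2.19, SE 0.12, adjusted p = 1.50e-07). Pou3f2, which lies with Pou3f1 on chromosome 4 and shares its promyelinating role, was low throughout, at 5.04 to 15.5 CPM, and was not called (0.04, adjusted p = 0.883 in control and 0.26, adjusted p = 0.379 in RaptorKO nerves).

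The EGR cofactors differed from each other. Nab1 read at 115, 128, and 140 CPM in contralateral and 61.1, 49.9, and 50.3 CPM in injured control nerves, and at 128, 108, 117, and 127 against 58.6, 47.2, and 62.4 CPM in RaptorKO nerves. The groups did not overlap within either genotype. Nab1 fell 2.41-fold in control (log2 fold change -1.27, SE 0.11, adjusted p = 6.38e-07, quasi-likelihood test) and 2.14-fold in RaptorKO nerves (-1.10, SE 0.12, adjusted p = 1.89e-05). Nab2 overlapped between injured and contralateral control nerves (log2 fold change -0.20, adjusted p = 0.194), and in RaptorKO nerves it fell (-0.71, SE 0.11, adjusted p = 0.000351). Its exons share 1050 bases with the antisense gene Gm16229 (0 to 21 counts), 151 with Nemp1 (129 to 285 counts), and 40 with Stat6 (1009 to 2208 counts), all on the other strand. The paper names a stranded library kit, but the sources used here do not give the strand setting of the counting.

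Tead1, the Hippo pathway factor, was at 401, 449, and 386 CPM in contralateral and 392, 396, and 362 CPM in injured control nerves, which overlapped (log2 fold change -0.13, adjusted p = 0.283). In RaptorKO nerves it was at 396, 385, 358, and 481 CPM contralaterally and at 276, 277, and 330 CPM after crush, with every injured nerve lower, and the fall was called (-0.47, SE 0.12, adjusted p = 0.00706, quasi-likelihood test). Yy1, the zinc finger factor, was at 71.7 to 86.3 CPM in contralateral and 63.2 to 66.9 CPM in injured control nerves, and the difference of -0.26 (adjusted p = 0.0381) stayed below the fold threshold. Without control contralateral replicate 1 or 3 it passed both thresholds (-0.31 in each case, adjusted p = 0.0360 and 0.0342).

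Zeb2, the repressor, read at 338, 396, and 367 CPM in contralateral and 763, 645, and 616 CPM in injured control nerves, and at 332, 281, 301, and 421 against 550, 495, and 699 CPM in RaptorKO nerves. Every injured nerve stood above every contralateral nerve of its genotype. Zeb2 rose 1.80-fold in control (log2 fold change 0.85, SE 0.11, adjusted p = 3.71e-05, quasi-likelihood test) and 1.74-fold in RaptorKO nerves (0.80, SE 0.16, adjusted p = 0.00133). Macrophages also express Zeb2, and all 10 macrophage markers rose with crush in both genotypes, from a summed level of 170 to 188 CPM to 3135 to 3812 CPM in control nerves and from 287 to 342 to 2118 to 4270 CPM in RaptorKO nerves. Their part in the rise of Zeb2 was not tested. The antisense gene Zeb2os shares 653 exon bases with Zeb2 and held 16 to 130 counts.

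**Figure D2:**
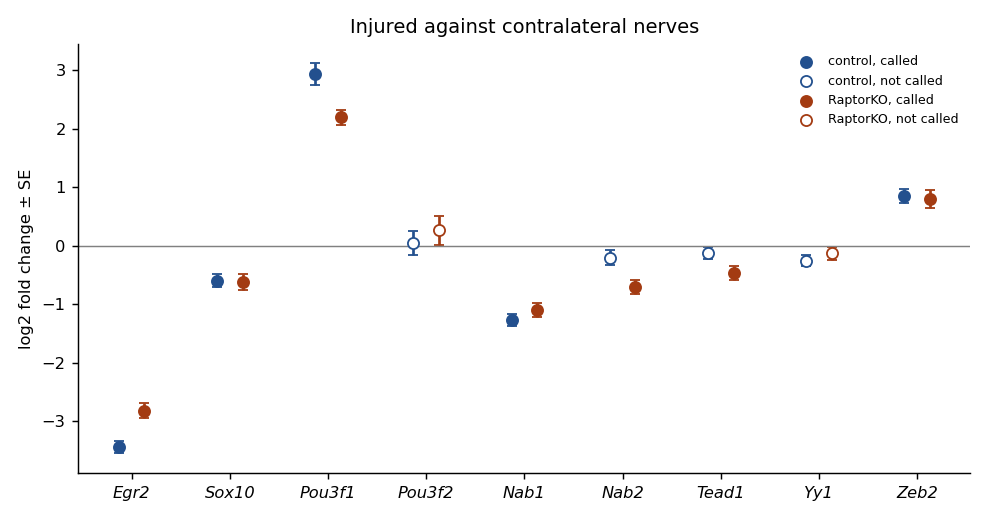
Log2 fold change of injured against contralateral nerves (error bars, SE of the fit) for each gene in control and RaptorKO nerves, with filled points for called genes. Egr2 lies at -3.45 and -2.82 and Pou3f1 at 2.93 and 2.19, and Nab2 and Tead1 are filled in RaptorKO nerves only. Calls are those of edgeR's quasi-likelihood test.

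Per kilobase (kb) of exon, the order of the factors changed with injury. In contralateral control nerves Sox10 was highest at 214 ± 13 CPM per kb (SD, n = 3), followed by Egr2 at 121 ± 7.3. Nab1 and Tead1 came next at 31.1 ± 3.0 and 30.4 ± 2.4 and overlapped. Zeb2 and Nab2 also overlapped, at 18.4 ± 1.5 and 18.2 ± 2.1 CPM per kb, above Yy1 at 11.96 ± 1.3, Pou3f1 at 4.16 ± 1.0, and Pou3f2 at 2.36 ± 0.28. In injured control nerves Sox10 stayed first at 144 ± 15 CPM per kb. Zeb2 (33.8 ± 3.9), Pou3f1 (32.4 ± 5.5), and Tead1 (28.3 ± 1.4) followed, and the libraries of Pou3f1 overlapped with those of both neighbours. Nab2 (16.1 ± 2.6) and Nab1 (13.1 ± 1.5) overlapped, whereas Egr2 had moved to 11.3 ± 0.64 CPM per kb, just above Yy1 at 10.2 ± 0.31. In RaptorKO contralateral nerves Nab2, at 24.96 ± 1.6 CPM per kb (SD, n = 4), stood above Zeb2 at 16.7 ± 3.1 without overlap. The length is that of all annotated exons, so a gene whose transcripts leave out part of them is placed too low. Zeb2 (19942 bases) and Tead1 (13570 bases) have the longest, and which of their exons were used was not measured.

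Next, a comparison by genotype set RaptorKO against control nerves. In contralateral nerves, Pou3f2 was lower and Nab2 higher in RaptorKO nerves. Of the 9 members, 1 was called higher and 1 lower, where 4.49% of 11878 tested genes were called higher and 5.68% lower. In injured nerves 0 members were called by edgeR's quasi-likelihood test, where 4.09% of 12040 genes were called higher and 4.44% lower. At an unadjusted p below 0.05 there were 2 of 9 (Pou3f2 and Tead1), where 2594 of 12040 genes were. DESeq2 called 1 of 9 (Tead1), where it called 672 of 12040 genes higher and 648 lower. The members' median log2 fold change was -0.12 in contralateral and -0.10 in injured nerves, against 0.01 and 0.00 over all tested genes.

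Nab2 read at 51.4, 48.8, and 60.6 CPM in control and at 67.8, 71.6, 76.9, and 77.4 CPM in RaptorKO contralateral nerves. All 4 RaptorKO nerves were above all controls, and Nab2 was 1.39-fold higher (log2 fold change 0.47, SE 0.10, adjusted p = 0.0156, quasi-likelihood test). The call was lost without control contralateral replicate 1 (adjusted p = 0.0719) or 2 (adjusted p = 0.0870). After crush both genotypes lay between 38.6 and 55.1 CPM and overlapped (-0.06, adjusted p = 0.885).

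Pou3f2 read at 13.8, 11.4, and 14.3 CPM in control and at 5.04, 7.89, 6.70, and 9.45 CPM in RaptorKO contralateral nerves, again without overlap. It was 1.79-fold lower (log2 fold change -0.84, SE 0.22, adjusted p = 0.0399, quasi-likelihood test). The call rested on nearly all libraries: it was lost without any 1 of the 3 controls (adjusted p = 0.133, 0.0849, and 0.128 without replicates 1, 2, and 3) or without RaptorKO replicate 1 (0.0767), 2 (0.0582), or 3 (0.0732). In injured nerves the values were 10.5, 15.2, and 15.5 CPM in control and 9.01, 7.66, and 9.55 CPM in RaptorKO nerves. All RaptorKO values were lower there as well, but the difference was not called (-0.64, SE 0.22, adjusted p = 0.108).

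**Figure D3:**
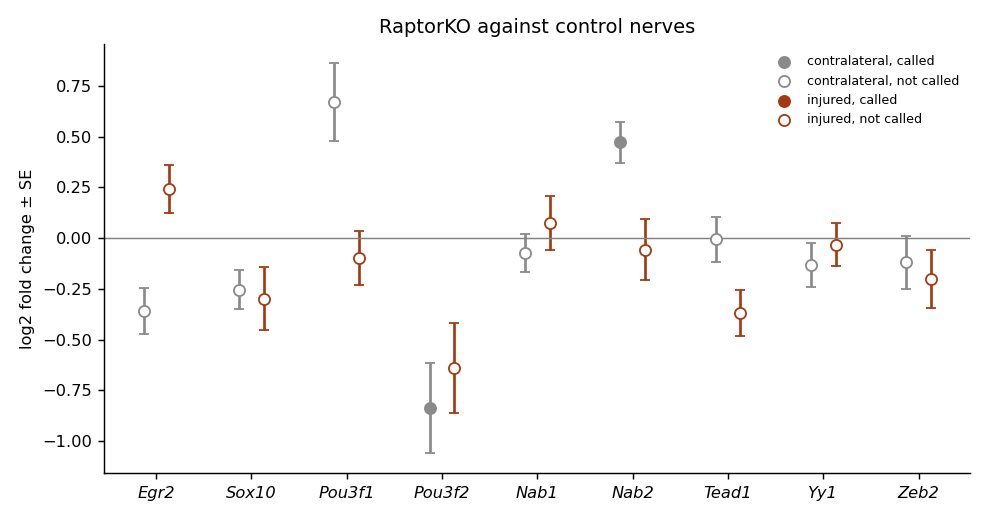
Log2 fold change of RaptorKO against control nerves (error bars, SE of the fit) for each gene in contralateral and injured nerves, with filled points for called genes. The filled points are Pou3f2 at -0.84 and Nab2 at 0.47 in contralateral nerves, and the 2 values of Egr2 lie on opposite sides of 0.

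Pou3f1 and Egr2 also came close to the threshold in contralateral nerves. Pou3f1 was higher in all 4 RaptorKO nerves (21.4 to 28.9 against 11.4 to 18.99 CPM), with a log2 fold change of 0.67 (SE 0.19) and an adjusted p of 0.0507 in the quasi-likelihood test. It was called in 6 of 14 alternatives, among them edgeR's exact test (adjusted p = 0.0245), RLE factors (0.0499), and DESeq2 (0.0116), with a range of 0.0116 to 0.150. The replicate block is also among the 6, although replicate numbers do not pair mice of different genotypes. Egr2 was lower in all 4 (265 to 365 against 385 to 435 CPM), with a log2 fold change of -0.36 (SE 0.11, adjusted p = 0.0733, and 0.0180 to 0.249 over 14 alternatives, of which 4 gave a call). Sox10 was lower in all 4 as well (482 to 590 against 620 to 700 CPM, -0.25, SE 0.10, adjusted p = 0.128) but lay further from the threshold. Its adjusted p was 0.0582 to 0.343 over 14 alternatives, of which 0 gave a call. How many of all tested genes separate the genotypes in this way was not counted. None of these 3 was called here. The remaining members Nab1, Tead1, Yy1, and Zeb2 overlapped between genotypes, with log2 fold changes from -0.13 to -0.01.

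In injured nerves Tead1 came closest to a call. It read at 392, 396, and 362 CPM in control and at 276, 277, and 330 CPM in RaptorKO nerves, which did not overlap (log2 fold change -0.37, SE 0.11, adjusted p = 0.0709, quasi-likelihood test). DESeq2 (adjusted p = 0.02004), a fit over all 13 libraries (0.0465), and the fit without RaptorKO injured replicate 3 (0.0390) called it, and over 13 alternatives the adjusted p ranged from 0.02004 to 0.245. Egr2 was higher in all 3 RaptorKO nerves (43.5 to 46.7 against 36.9 to 40.8 CPM, 0.24, SE 0.12, adjusted p = 0.259). Sox10 overlapped (276 to 418 against 402 to 491 CPM, -0.30, SE 0.15, adjusted p = 0.301), as did Pou3f1 (109 to 121 against 100 to 137 CPM, -0.10, adjusted p = 0.757), Nab1, Yy1, and Zeb2.

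Markers of several cell types moved with genotype. In contralateral nerves the summed SC markers were 1306 to 1636 CPM in RaptorKO against 2378 to 2411 CPM in control nerves (3 of 6 called lower, 1 higher). The lower sum came mostly from S100b (434 ± 43 against 838 ± 40 CPM) and Cdh19 (213 ± 29 against 525 ± 36 CPM). Erbb3 was the remaining gene called lower and Ngfr the 1 called higher (0.81), and Sox10 was not called. Macrophage markers were at 287 to 342 against 170 to 188 CPM (6 of 9 tested called higher), fibroblast markers at 9550 to 12603 against 6501 to 7443 CPM (3 of 6), and mast cell markers at 69.9 to 124 against 10.2 to 50.3 CPM (2 of 4 tested). In injured nerves the SC markers were at 2339 to 3088 in RaptorKO against 3364 to 3678 CPM (2 of 6 called lower, S100b and Cdh19). The pericyte and smooth muscle markers were at 845 to 1137 against 440 to 533 CPM (4 of 5 called higher), and the endothelial markers at 412 to 642 against 218 to 344 CPM (5 of 6). Fibroblast markers were called higher in 2 of 6 and mast cell markers in 3 of 4 tested, and macrophage markers in 0 of 10. Skeletal muscle markers summed to at most 1.47 CPM in any library. Adipocyte markers ranged from 0 to 249 CPM, and 0 of 3 were called in contralateral nerves. In RaptorKO nerves the adipocyte marker Cfd was called lower after crush. Its RaptorKO contralateral libraries ranged from 0.23 to 168 CPM, so its level differed widely within that group. The part of all these cell types in the differences of the 9 genes was not tested.

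Egr2 was then set against Sox10 within each library, a ratio that does not depend on how libraries are scaled. Egr2 counts were 55.1%, 70.1%, and 64.1% of Sox10 counts in contralateral control nerves and 8.69%, 8.30%, and 9.26% in injured ones. In RaptorKO nerves they were 66.7%, 62.8%, 55.0%, and 49.4% contralaterally and 11.9%, 11.2%, and 16.1% after crush. The ratio was thus 7.18-fold lower after crush in control nerves (exact permutation test over libraries, two-sided, p = 0.1, which is the floor for 3 against 3). It was 4.51-fold lower in RaptorKO nerves (exact permutation test, p = 0.0286, which is the floor for 3 against 4). These 2 p-values differ through the number of libraries only. The test permuted libraries freely and did not use the pairing of nerves by mouse. Between genotypes the contralateral nerves overlapped (exact permutation test, p = 0.4). In the injured nerves all 3 RaptorKO ratios were above all 3 controls, by 1.47-fold on average (exact permutation test, p = 0.1).

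**Figure D4:**
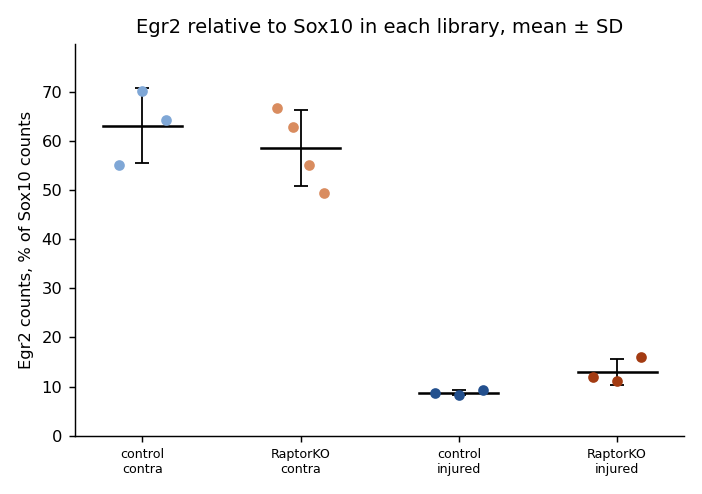
Egr2 counts as a percent of Sox10 counts in each library (points), with the mean and SD of each group. The 7 contralateral nerves lie between 49.4% and 70.1%, the injured control nerves between 8.30% and 9.26%, and the injured RaptorKO nerves between 11.2% and 16.1%.

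Whether the genotype effect itself differed between injured and contralateral nerves was tested as an interaction over all 13 libraries. Of the members, 0 were called by edgeR's quasi-likelihood test, where 1.07% of 12851 genes were called higher and 1.41% lower. At an unadjusted p below 0.05 there were 4 of 9 (Egr2, Pou3f1, Nab2, and Tead1), where 1827 of 12851 genes were. DESeq2 called 2 of 9 (Egr2 and Pou3f1), where it called 245 of 12851 genes higher and 353 lower. Egr2 had a difference of 0.60 on the log2 scale (SE 0.16, adjusted p = 0.0562), and Pou3f1 had one of -0.76 (SE 0.24, adjusted p = 0.122). Nab2 stood at -0.53 (adjusted p = 0.170) and Tead1 at -0.36 (adjusted p = 0.312). Over 19 alternative analyses the adjusted p of Egr2 ranged from 0.0171 to 0.183, and that of Pou3f1 from 0.0410 to 0.254. With each mouse as a block, Pou3f1 was called (-0.70, adjusted p = 0.0417) and Egr2 was not (0.58, adjusted p = 0.0552). Nab2 and Tead1 were called after crush in RaptorKO nerves and not in control nerves, but that difference did not pass this test.

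The other genes of the pathway were taken from 7 lists, some of which share genes. Every list count below stands beside these shares of all tested genes. After crush, 32.4% were called higher and 32.9% lower in control nerves, and 30.5% and 28.5% in RaptorKO nerves. Between genotypes, 4.49% were called higher and 5.68% lower contralaterally, and 4.09% and 4.44% in injured nerves. No list was tested as a set. The myelin genes that EGR2 and SOX10 activate were lower after crush, as Egr2 was. All 17 of 17 were called lower in control nerves, with a median log2 fold change of -4.02. Pmp22 went from 20061 ± 1322 to 429 ± 56 CPM (log2 fold change -5.57, adjusted p = 4.33e-11, quasi-likelihood test), and the log2 fold changes of Drp2, Cdh1, and Mbp were -6.52, -5.21, and -5.20. In RaptorKO nerves 15 of 17 were called lower (median -4.67), and Mbp, Pmp22, Ugt8a, and Mag had the smallest p. Gjb1, the gap junction gene connexin 32, was the 1 called higher (195 ± 16 against 122 ± 8.8 CPM).

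**Figure D5:**
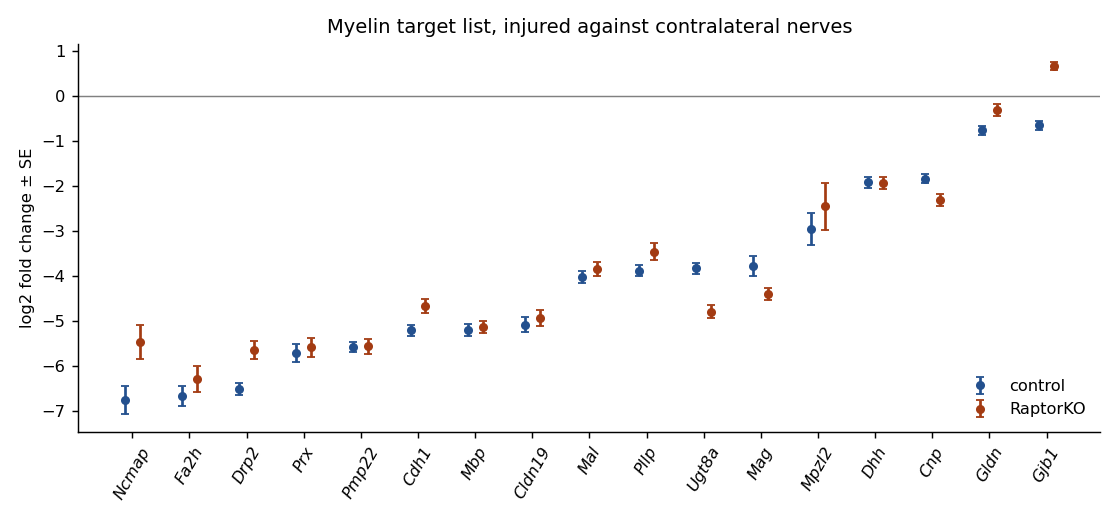
Log2 fold change of injured against contralateral nerves (error bars, SE of the fit) for the 17 myelin genes of the EGR2 and SOX10 list, in control and RaptorKO nerves. Values lie below 0 for all 17 genes in control nerves, and Gjb1 is the gene called higher in RaptorKO nerves, at 0.67.

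Between genotypes, 2 of these 17 myelin genes were lower in RaptorKO contralateral nerves (Cdh1 and Ncmap, with log2 fold changes of -0.49 and -0.52) and 0 higher. In injured nerves Gjb1 (1.049) and Drp2 (0.469) were called higher and Ugt8a (-0.87) and Cnp (-0.51) lower in RaptorKO. Egr2 itself, at -0.36 and 0.24, was called in neither comparison by the quasi-likelihood test, and in contralateral nerves it was called by 4 of 14 alternatives, DESeq2 (adjusted p = 0.0180) among them.

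The TEAD partners and targets were mostly lower after crush, whereas Tead1 itself was not called in control nerves. In control nerves 10 of 12 tested genes were called lower and 1 higher (median log2 fold change -0.92), led by Amotl2 (-2.26), Tead3 (-2.14), Cyr61 (-2.22), and Vgll4 (-1.24). Tead2 was the 1 called higher (1.30). In RaptorKO nerves 9 were lower and 2 higher, with Amotl2 (-2.25), Tead3 (-2.22), Vgll3 (-1.54), and Cyr61 (-1.80) first, and with Tead2 and Ctgf as the 2 that were higher. Between genotypes Yap1, the coactivator, was lower in RaptorKO contralateral nerves (121 ± 7.7 against 151 ± 8.4 CPM, adjusted p = 0.0429, quasi-likelihood test), 1 of 12 tested. In injured RaptorKO nerves Vgll3 was lower (-0.69) and Ctgf, a YAP and TAZ target, higher (0.91).

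Relatives of the POU and SOX factors went both ways. In control nerves 5 of 10 tested were called higher and 1 lower after crush, where 32.4% and 32.9% of all tested genes were. Sox4 went from 5.14 ± 1.2 to 144 ± 7.7 CPM, and Sox2, a factor of immature SCs, from 9.30 ± 1.0 to 67.2 ± 11 CPM. Pou2f2 rose by 3.31 on the log2 scale, and Sox8, a relative of Sox10, fell by 1.58. In RaptorKO nerves 4 were higher and 2 lower, and Sox4, Sox8, Sox2, and Pou2f2 had the smallest p. Sox8 was also the 1 gene of 9 tested that was called between genotypes in contralateral nerves, at 36.5 ± 6.9 in RaptorKO (n = 4) against 17.8 ± 3.3 CPM in control nerves (n = 3, log2 fold change 1.049, adjusted p = 0.00448, quasi-likelihood test). In injured nerves 0 of 10 were called between genotypes.

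Among EGR relatives and the NuRD subunits that NAB proteins recruit, 7 of 10 tested were called higher and 0 lower after crush in control nerves, with Chd3 (2.01), Egr3 (2.72), Egr1 (0.91), and Hdac1 (0.55) first. In RaptorKO nerves 4 were higher and 0 lower (Egr1, Hdac2, Chd3, and Rbbp7). Egr1 was higher in injured RaptorKO than in injured control nerves (37.99 ± 10 against 22.3 ± 3.5 CPM, adjusted p = 0.0304, quasi-likelihood test), 1 of 10 tested. Contralaterally Hdac1 was higher (0.38) and Rbbp4 lower (-0.37) in RaptorKO nerves, 2 of 9 tested.

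For Zeb2, the list held its relative Zeb1 and genes it represses in SCs. After crush 5 of 9 tested genes were called higher and 1 lower in control nerves (median 1.22), with Ednrb (3.77), Sox2 (2.83), Id2 (2.92), and Notch1 (1.22) first, and 5 of 8 were higher in RaptorKO nerves, with Id2 (2.35), Sox2 (3.44), Ednrb (2.12), and Zeb1 (0.79) first. Hey2, a Notch target, was the 1 called lower in control nerves (-2.53) and was not tested in RaptorKO nerves. Ednrb, an endothelin receptor gene of immature SCs, was lower in injured RaptorKO than in injured control nerves (42.7 ± 9.7 against 134 ± 20 CPM, log2 fold change -1.64, adjusted p = 0.000343, quasi-likelihood test), 1 of 8 tested, and 0 of 9 were called contralaterally.

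Upstream inputs to the switch were mixed. In control nerves 6 of 15 were called higher after crush and 2 lower, led by Ezh2, the PRC2 methyltransferase (2.84), Srebf2, a regulator of sterol synthesis (-2.38), and the chromatin genes Smarca4 (0.89) and Suz12 (0.59). In RaptorKO nerves 4 were higher and 3 lower, with Srebf2 (-2.42), Ezh2 (2.04), Smarca4 (0.79), and Adgrg6 (-0.75) first. Adgrg6 (Gpr126), the receptor through which SCs enter myelination, was lower in injured RaptorKO than in injured control nerves (74.9 ± 2.1 against 118.5 ± 5.2 CPM, adjusted p = 0.00285, quasi-likelihood test). Erbb2 was lower as well (49.1 ± 7.4 against 81.0 ± 13 CPM), and Erbb3 was lower in contralateral RaptorKO nerves (225 ± 28 against 308 ± 16 CPM), so that 2 and 1 of 15 were called.

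Of the regulators that oppose myelination, 7 of 9 tested rose after crush in each genotype and 0 fell, with medians of 1.22 in control and 1.23 in RaptorKO nerves. Runx2 (5.49), Jun (2.78), Sox2 (2.83), and Id2 (2.92) came first in control nerves, and Runx2 (4.83), Jun (2.51), Id2 (2.35), and Sox2 (3.44) in RaptorKO nerves. Egr1 was the 1 gene of 9 tested that was called between genotypes in injured nerves, and 0 of 8 were called in contralateral nerves.

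The genes whose pattern over the 13 libraries was most like that of a member were found by the root mean square difference of centred log2 CPM among 12851 genes. For Egr2 these were Spint1 (0.16), Ndrg1 (0.16), Elovl7 (0.16), Chn2 (0.17), and Cmya5 (0.17). Sox10 was followed most closely by Schip1, Agrn, Ttc9, Pcbp4, and Slc39a13, at 0.12 to 0.13. Pou3f1 was followed less closely, by Ezh2 (0.20), Id2 (0.21), B4galt5 (0.23), Jpt1 (0.27), and Dnase2a (0.28). The difference is on the log2 scale, and 0 would be the same pattern.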

How the data were processed

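Whole sciatic nerves of 4 groups were profiled by RNA sequencing (13 libraries). The authors trimmed reads (Trimmomatic), used GRCm38, and deposited RSEM 1.2.22 expected counts, not normalized for depth. Of the nonzero values, 24.9% to 28.0% per library were not whole, because RSEM shares out ambiguous reads. They were rounded here. Of 40787 genes, 40550 were matched to symbols of GENCODE M21.

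The fits used edgeR 4.0.16 under R 4.3.3 (TMM, quasi-likelihood test, Benjamini-Hochberg adjustment over all tested genes), in pairwise fits, and over all libraries for the interaction. Tested genes had 50 or more counts in 2 or more of the libraries compared. The paper's exact test, DESeq2 1.42.0, RLE factors, no filter, 1 fit over all libraries, a replicate block, an adjusted p below 0.01, and leaving out libraries were alternatives. Scripts were tested on simulated data. Upstream windows came from RefSeq (GRCm38.p6).

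The members and lists were chosen with earlier results of these data known. The lists were TEAD partners and targets, EGR relatives and NuRD, POU and SOX relatives, ZEB2 relatives and targets, inputs, myelin genes, antimyelination regulators, and markers of 8 cell types. Of the genes listed, 3 are not reported here and were left out of the list counts and marker sums. All members were named, and from each list up to 4 called genes per comparison with the smallest p, any gene called in the interaction, and others where a count of 5 or fewer is spelled out. Jun, Runx2, and Olig1 were also given between genotypes because the paper measured them by qRT-PCR. For Egr2, Sox10, and Pou3f1 the 5 genes of the most similar pattern were named. Equal replicate numbers within a genotype were taken as 1 mouse, since the crush was unilateral, the paper speaks of the corresponding contralateral nerves, and the titles share the number. Deviations from the group means of such pairs correlated at -0.024 to 0.305. For replicate 1 the highest correlation with a nerve of another number was larger (0.136 against 0.067 in control, 0.094 against -0.024 in RaptorKO). For replicates 2 and 3 it was smaller. Contralateral nerves of equal number but different genotype reached 0.301, so these values do not single out nerves of 1 mouse. As in the paper, the fits had no block, and the mouse as a block was an alternative.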

Additional observations from a re-analysis of the deposited data

Results flagged for a closer look

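Egr2 was lower in all 4 RaptorKO contralateral nerves than in the 3 controls and higher in all 3 RaptorKO injured nerves than in their controls, so that the genotype effect was 0.604 higher on the log2 scale in injured nerves. The test of this difference did not pass the threshold (adjusted p = 0.0562, edgeR's quasi-likelihood test over 13 libraries).

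Among the listed genes of the pathway, 5 had a genotype effect that was called as different between injured and contralateral nerves in the same test. By list, 1 of 12 tested TEAD genes was called higher. Of 17 myelin genes 2 were called higher and 1 lower, and of 9 tested genes of the ZEB2 list 1 was called lower. Over all 12851 tested genes, 1.07% were called higher and 1.41% lower. Gjb1, the connexin 32 gene, had the largest positive difference (1.299, adjusted p = 0.000175), with 195 ± 16 against 95.0 ± 7.4 CPM in injured nerves (RaptorKO and control, n = 3 each) and 122 ± 8.8 against 146 ± 13 CPM in contralateral nerves (n = 4 and 3). Drp2, which encodes a dystrophin-related protein of the SC membrane, differed by 0.846 (adjusted p = 0.0463), at 79.2 ± 6.3 against 57.8 ± 8.8 CPM in injured nerves. Ctgf differed by 1.073 (adjusted p = 0.0426), at 142 ± 43 against 76.5 ± 17 CPM in injured nerves. Ednrb differed by -1.655 (adjusted p = 0.0227), and its contralateral levels were 9.86 ± 3.4 in RaptorKO and 9.72 ± 2.4 CPM in control nerves. Ugt8a, the galactosyltransferase of myelin galactolipids, differed by -0.984 (adjusted p = 0.00718), at 34.5 ± 5.2 against 63.7 ± 5.7 CPM in injured nerves. Of the cell type markers, Rgs5 (1.229), Kdr (0.741), Cspg4 (0.739), Lyz2 (-1.081), and Ngfr (-0.931) were also called in this test. The part of these cell types in the differences above was not tested.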

How the results depend on the processing

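No called value changed sign under any alternative run. Of the 45 values of single members, 9 took both signs among their alternatives, within -0.31 to 0.23, and 0 of these were called in any (Nab1, Nab2, and Yy1 by genotype in injured nerves, Nab1 and Tead1 by genotype in contralateral nerves, Pou3f2 and Nab2 after crush in control nerves, and Sox10 and Zeb2 in the interaction). For injured nerves, 1 member (Tead1) was called between genotypes in 1 fit over all 13 libraries and by DESeq2, against 0, and leaving out 1 library gave 0 to 1. For contralateral nerves the count of 2 became 4 with 1 fit over all libraries, 4 with DESeq2, 4 without the count filter (Egr2 and Pou3f1 added each time), and 0 at an adjusted p below 0.01, and leaving out 1 library gave 0 to 2. It was 0 without control contralateral replicate 1 or 2 and 1 without control replicate 3 or RaptorKO replicate 1 or 3. Over all 11878 tested genes in contralateral nerves, DESeq2 called 720 higher and 870 lower, against 533 and 675 in the main fit. For the interaction, the count of 0 became 2 with DESeq2 and 2 without the count filter (Egr2 and Pou3f1), and leaving out 1 library gave 0 to 1 (Egr2, adjusted p = 0.0272, without RaptorKO contralateral replicate 2). The cause of these shifts was not tested. The counts of the injury effects stayed within 1.5 times, and the ratio of Egr2 to Sox10 kept its direction in all alternatives run. With 3 against 3 nerves its p cannot go below 0.1, so that its side of the threshold shows nothing there. Over all alternatives, 635 values of single members kept their status, whether called or not called, 21 gained a call, and 10 lost one.

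With a replicate block, which within a genotype is the mouse, 1 member (Pou3f1, adjusted p = 0.0417) was called in the interaction, and the block changed no other call of a member between injured and contralateral nerves or in the interaction. Numbers do not pair mice of different genotypes. There the block left 0 members called in injured nerves and gave 3 in contralateral nerves, with Pou3f1 added (adjusted p = 0.0203). Over all 11878 tested genes it called 880 higher and 931 lower contralaterally, against 533 and 675 without it. Deviations of equal numbers across genotypes correlated at 0.072, 0.254, and 0.301 contralaterally (replicates 1, 2, and 3), and at 0.027, 0.014, and -0.050 in injured nerves. Whether a batch follows the replicate number was not tested.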
